A study of Homo sapiens with 18 samples.

Results

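The genes described here are 10 regulators of the G1 phase of the cell cycle: the D-type cyclins CCND1, CCND2 and CCND3, the kinases CDK4 and CDK6, the kinase inhibitors CDKN1A, CDKN1B, CDKN1C and CDKN2C, and the retinoblastoma gene RB1. They were taken by gene symbol, and all 10 were found among the 39368 genes of each count table. RNA was sequenced from the established human cell lines BE2C and Kelly, in a study of MYCN-amplified neuroblastoma. Each line carried the control vector pLKO-GFP (genotype control) or 1 of 2 short hairpin RNAs against AHR, the gene of the aryl hydrocarbon receptor, named shAhR-1 and shAhR-2 (genotype AhR knockdown). Each of the 6 groups of line and vector held 3 libraries, 18 in all. The libraries of a group are not said to come from separate cultures, so p-values cover no more than the spread among them, and that spread can be technical. Time after infection and selection are not used here.

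In G1, a D-type cyclin binds CDK4 or CDK6, and the active kinase phosphorylates the retinoblastoma protein. The phosphorylated protein releases E2F transcription factors, which switch on cyclin E and the genes of DNA replication. Inhibitors of the INK4 family, such as p18 from CDKN2C, bind CDK4 and CDK6 themselves, and those of the Cip/Kip family, p21 from CDKN1A, p27 from CDKN1B and p57 from CDKN1C, bind cyclin and kinase together and block CDK2 most strongly. In neuroblastoma, cyclin D1 is known for its high level, CDK4 is a textbook target of MYC proteins, and p27 marks cells that leave the cycle.

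Libraries held 32799682 to 45469353 counts. AHR, the targeted gene, had 4, 4 and 6 counts in the BE2C control libraries, 8, 0 and 0 with shAhR-1 and 0, 0 and 0 with shAhR-2. In Kelly it had 4, 26 and 29 counts in the control libraries, 18, 11 and 22 in those labelled shAhR-1 and 0, 4 and 0 with shAhR-2. AHR was thus low with shAhR-2 in both lines, in Kelly by −3.84 ± 0.81 on the log2 scale (± SE, adjusted p = 3.41e-05, edgeR). In Kelly AHR passed the filter on low counts only through control and shAhR-1 libraries. Its lowest control library and its highest shAhR-2 library there each held 4 counts, so the 2 groups overlapped. In BE2C it had too few counts for the test. The shAhR-1 libraries showed no clear fall in either line (in Kelly −0.10 ± 0.54, adjusted p = 0.889, edgeR). The exact 95% interval of their ratio of pooled counts to control was 0.206 to 1.45 in BE2C and 0.648 to 1.42 in Kelly. These intervals cover counting error only, not the spread among libraries, and do not exclude a partial fall. Every direction given for shAhR-1 is that of the libraries labelled so. All 10 sympathetic neuroblastoma markers listed for the check of the cell type had counts in every group, but their summed level was lower with both hairpins. In BE2C it was 5775 to 5988 CPM (counts relative to library totals scaled by TMM over the 18 libraries) in the controls, 5174 to 5242 with shAhR-1 and 2995 to 3032 with shAhR-2. The Kelly sums were 9668 to 10404 CPM, 5281 to 5400 and 6251 to 6320 in the same order. Of these 10 markers 6 fell and 2 rose with shAhR-1 in each line, and with shAhR-2 9 fell and 1 rose in BE2C and 8 fell and 2 rose in Kelly. The mitochondrial share of counts also moved with shAhR-1. In BE2C it was 18.8% to 19.4% in the controls and 24.3% to 24.9% with shAhR-1. In Kelly it was 14.5% to 15.6% in the controls and 17.4% to 17.7% with shAhR-1. With shAhR-2 in Kelly it was 15.2% to 15.8%, which overlapped with the controls. The part of either shift in the member changes was not tested. In BE2C with shAhR-2 the share was 25.1% in the first library and 20.5% in each of the other two, so values without that library are given where a call depends on it.

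The start regions of CDK4, CDKN1B and CDKN1A are shown because CDK4 and CDKN1B were the only members called in 1 direction in all 4 comparisons with control, and CDKN1A was called in opposite directions in the 2 lines. Each is the 250 bases before a RefSeq gene start (GRCh38.p14), 5′ to 3′ on the gene's strand: chr12:57752311-57752560 (minus strand), chr12:12717118-12717367 (plus) and chr6:36678464-36678713 (plus). Capitals mark CACGTG, the E-box bound by MYC family proteins, or TNGCGTG, a form of the xenobiotic response element bound by the aryl hydrocarbon receptor, on either strand.
CDK4: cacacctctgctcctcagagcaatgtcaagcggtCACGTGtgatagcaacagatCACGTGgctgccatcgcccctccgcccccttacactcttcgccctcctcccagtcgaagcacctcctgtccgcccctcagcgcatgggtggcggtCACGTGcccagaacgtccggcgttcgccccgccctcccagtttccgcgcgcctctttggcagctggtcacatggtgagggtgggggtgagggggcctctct
CDKN1B: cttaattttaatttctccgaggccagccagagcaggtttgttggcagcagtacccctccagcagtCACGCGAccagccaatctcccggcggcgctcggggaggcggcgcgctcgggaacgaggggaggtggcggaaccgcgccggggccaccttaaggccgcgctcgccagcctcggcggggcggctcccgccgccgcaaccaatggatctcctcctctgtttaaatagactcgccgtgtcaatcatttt
CDKN1A: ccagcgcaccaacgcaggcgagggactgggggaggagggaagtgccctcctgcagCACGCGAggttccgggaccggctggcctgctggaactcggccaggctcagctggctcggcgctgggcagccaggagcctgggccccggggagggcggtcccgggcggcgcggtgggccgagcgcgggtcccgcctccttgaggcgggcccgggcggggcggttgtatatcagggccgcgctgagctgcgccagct
The CDK4 window held 3 E-boxes and no TNGCGTG. The CDKN1B and CDKN1A windows each held 1 TNGCGTG match, on the strand opposite to the gene, and no E-box. Among all 35116 RefSeq start windows of this length, 6.34% held an E-box, 4.52% TNGCGTG and 32.2% its core GCGTG, which lies inside TNGCGTG. Start windows were matched for 7 members (CCND3, CDK4, CDK6, CDKN1A, CDKN1B, CDKN2C and RB1), 12 windows in all. They lie before RefSeq starts, and those shown are inside the wider GENCODE extent of their gene. The 1 RB1 window (chr13:48476200-48476449) lies far inside RB1, so the start at the 5′ end of RB1 was not searched. The core was in 6 of the 12 windows, from 5 of the 7 members, and an E-box in 3 of the 12, from CDK4 and CDKN2C. None of the 12 windows held any of the E2F forms TTTCGCGC, TTTGGCGC, TTTCCCGC or TTTGCCGC, which 2.79% of all windows held. These are matches of letters and do not show binding.

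Levels were first compared between genes per length, as CPM per kb of GENCODE exon (all annotated exons of the gene merged), in the control libraries. In BE2C, CCND1 led with 192 ± 11.05 CPM per kb (mean ± SD, n = 3, as throughout), followed by CDK4 (69.3 ± 1.72), CDKN1B (34.8 ± 0.673), RB1 (20.2 ± 0.301), CDK6 (17.1 ± 0.906), CDKN2C (10.7 ± 0.825), CCND3 (4.36 ± 0.366) and CDKN1A (1.34 ± 0.0284). In Kelly the order was CCND1 (56.9 ± 0.685), CDK6 (51.7 ± 0.673), CDK4 (28.3 ± 1.20), CDKN1B (23.9 ± 2.30), CDKN1A (15.9 ± 0.807), CDKN2C (12.0 ± 0.331), RB1 (9.85 ± 0.308) and CCND3 (2.49 ± 0.0791). The libraries of neighbours in these orders did not overlap in either line. CDKN1C and CCND2 closed both orders at 0.212 CPM per kb or less, and in the BE2C controls their values overlapped.

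**Figure D1:**
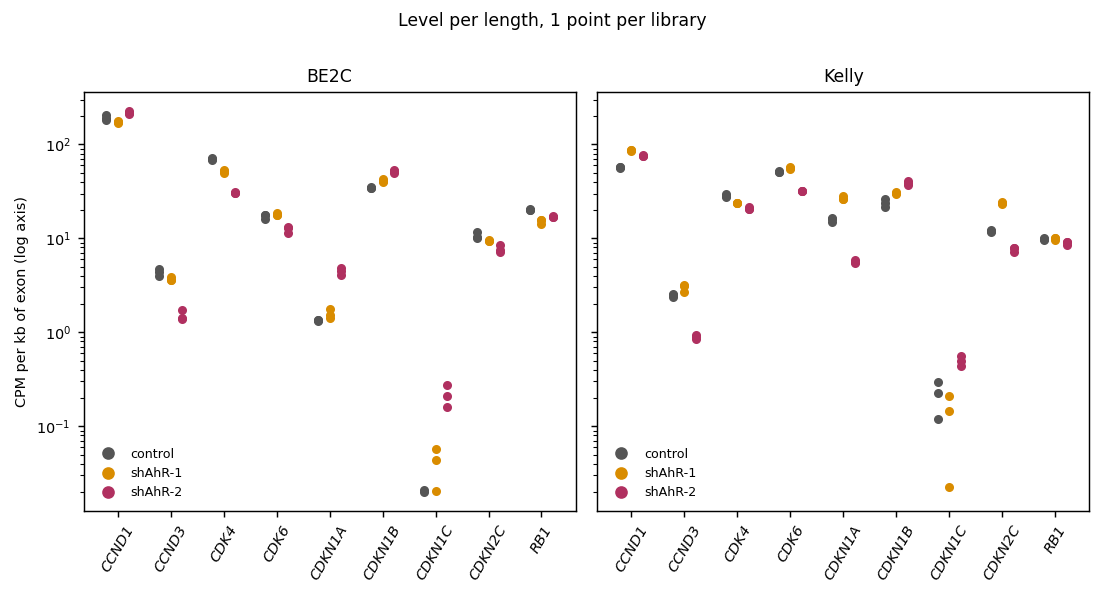
Level of 9 members in CPM per kb of exon (log axis), 1 point per library, by gene and group, for BE2C (left) and Kelly (right). CDK4 lies above CDK6 in every BE2C library and below it in every Kelly library. CCND2 and 1 BE2C control library of CDKN1C at 0 are not drawn.

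On this measure the lines differed in which kinase led. TSPAN31 overlaps 43.2% of the exonic bases of CDK4 on the opposite strand. Reads there may not all have been counted for CDK4, so the order of the 2 kinases in Kelly depends on the length used. The ratio of CDK6 to CDK4 per kb was 0.247 ± 0.0140 in the BE2C controls and 1.83 ± 0.0948 in the Kelly controls. In edgeR's quasi-likelihood test of BE2C against Kelly controls, 9 of the 10 members had an adjusted p (Benjamini-Hochberg) below 0.05, which is what called means throughout. Of all 17136 genes tested 76.2% were called, 37.2% as higher and 39.0% as lower in BE2C, against 5 and 4 of the members. CDKN1A was lower in BE2C at a log2 value of −3.65 ± 0.079 (± SE, adjusted p = 4.10e-38, edgeR), and CDKN1C, with few counts, at −3.93 ± 0.75. CDK6 (−1.68 ± 0.035) and CDKN2C (−0.26 ± 0.057) were also lower in BE2C, while CCND1 (1.67 ± 0.032), CDK4 (1.20 ± 0.035), RB1 (0.95 ± 0.040), CCND3 (0.72 ± 0.083) and CDKN1B (0.45 ± 0.045) were higher. CCND2, with 0, 0 and 0 counts in the BE2C controls and 2, 0 and 0 in those of Kelly, was not called (adjusted p = 0.261, edgeR). It passed the filter on low counts in the fit of all 18 libraries only through shAhR-2 libraries. Each line came in its own table, so the line and any batch between the tables cannot be told apart.

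Against the control of the same line, the inhibitor gene CDKN1B rose and the kinase gene CDK4 fell in all 4 comparisons. With shAhR-2, CCND3, CDK6, CDKN2C and RB1 also fell in both lines, and CCND1 and CDKN1C rose in both. CDKN1A rose with shAhR-2 in BE2C and fell with it in Kelly. CCND2 did not pass the filter on low counts in either line, which left 9 members in each. With shAhR-1 in BE2C 6 of 9 were called (1 higher, 5 lower), where 52.3% of the 15732 genes tested were (25.2% higher, 27.1% lower). With shAhR-2 in BE2C all 9 were (4 higher, 5 lower), against 75.1% of genes (38.0% higher, 37.2% lower), but CDKN1C among the 4 could be tested in BE2C only because its shAhR-2 libraries were high. In Kelly 7 of 9 were called in the libraries labelled shAhR-1 (6 higher, 1 lower), against 60.5% of 15871 genes (29.6% higher, 31.0% lower). With shAhR-2 in Kelly 9 of 9 were (3 higher, 6 lower), against 75.4% of genes (37.2% higher, 38.2% lower). With such shares across all genes, the counts are no result about the members, which are described here by size and direction. The members' median in BE2C was −0.14 with shAhR-1 and −0.22 with shAhR-2, in Kelly it was 0.26 and −0.52, and that of all genes tested lay between −0.01 and 0.03. Both hairpins of a line share its control libraries, so their changes are not independent.

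**Figure D2:**
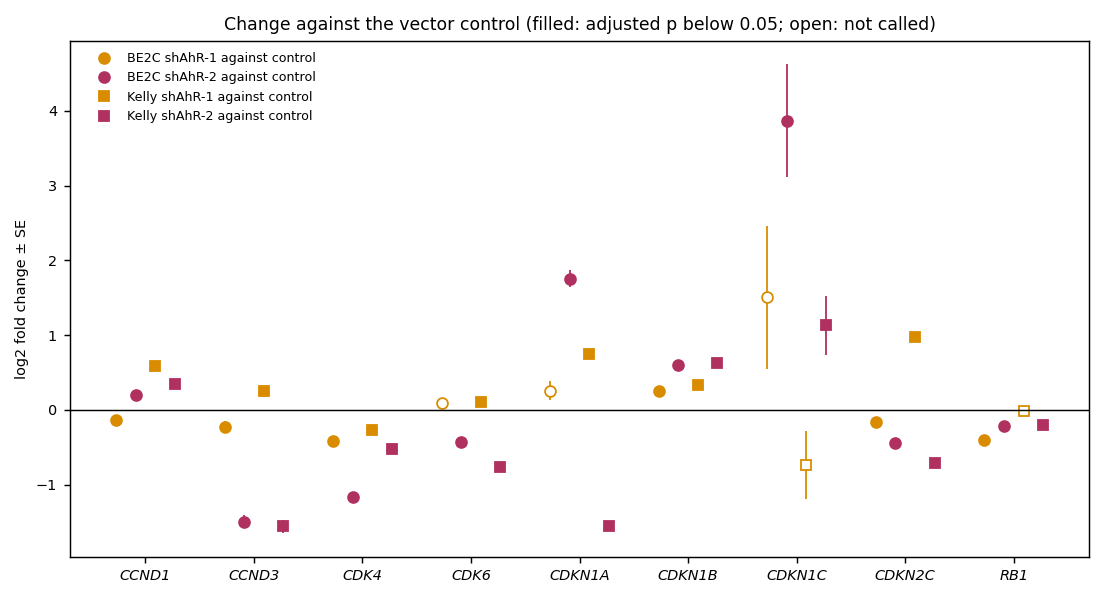
Log2 fold change against pLKO-GFP in the same line (y axis) for the 9 members tested, by gene; points are edgeR estimates and bars ± SE. CDK4 lies below 0 and CDKN1B above 0 in all 4 comparisons, and CDKN1A with shAhR-2 lies at 1.75 in BE2C and −1.56 in Kelly.

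Among the D-type cyclins, CCND1 (chromosome 11, 69641087–69654474, plus strand, GRCh38, GENCODE release 29) held most of the counts. In BE2C its levels were 982, 876 and 926 CPM in the controls, 836, 852 and 824 with shAhR-1 and 1084, 1016 and 1034 with shAhR-2. The 3 groups did not overlap, with shAhR-1 lowest and shAhR-2 highest. The changes were small, at −0.14 ± 0.032 (adjusted p = 0.000483, edgeR) and 0.19 ± 0.032 (adjusted p = 1.77e-06, edgeR). In Kelly the controls held 271, 277 and 276 CPM, those labelled shAhR-1 407, 422 and 420, and those with shAhR-2 361, 368 and 376. All 6 hairpin libraries lay above the controls there, by 0.59 ± 0.028 and 0.35 ± 0.028 (adjusted p = 8.64e-25 and 1.92e-16, edgeR). CCND1 shares 10.3% of its exonic bases with LTO1 on the opposite strand, and no strand setting is stated in the labels.

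CCND3 (chromosome 6, 41934933–42050357, minus strand), the cyclin D3 gene, had 27.1, 22.96 and 25.7 CPM in the BE2C controls, 20.8, 20.7 and 22.3 with shAhR-1 and 10.05, 8.34 and 8.12 with shAhR-2. In Kelly it had 14.9, 14.6 and 14.0 CPM in the controls, 18.6, 15.6 and 17.96 in the libraries labelled shAhR-1 and 5.16, 5.38 and 4.94 with shAhR-2. The shAhR-2 libraries were the lowest of both lines and overlapped with no other group. The log2 changes were −1.49 ± 0.086 in BE2C and −1.56 ± 0.092 in Kelly (adjusted p = 8.41e-17 and 3.35e-21, edgeR), and the difference between the lines, at 0.05 ± 0.13, was not called (adjusted p = 0.804, edgeR). With shAhR-1 it fell in BE2C (−0.23 ± 0.080, adjusted p = 0.0147, edgeR), a call lost without the first control library (−0.18, adjusted p = 0.0945), and rose in Kelly (0.26 ± 0.082, adjusted p = 0.00565, edgeR).

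CCND2 (chromosome 12, 4273772–4305350, plus strand), the cyclin D2 gene, was close to 0 throughout. Its counts were 0, 0 and 0 in the BE2C controls, 0, 4 and 0 with shAhR-1 and 11, 2 and 6 with shAhR-2. In Kelly they were 2, 0 and 0 in the controls, 2, 2 and 0 in the libraries labelled shAhR-1 and 22, 10 and 17 with shAhR-2. Every shAhR-2 library of a line thus held more than each of its controls, at counts too low for the filter. For shAhR-2 in BE2C, with no count in the controls, the exact 95% lower limit of the ratio of pooled rates was 4.14, and in Kelly the ratio was 24.8 (exact 95% interval 6.50 to 210.2). Among counts of 1 to 20, 68.3% to 72.5% in each library were even, a pattern that counting each mate of a read pair would also give. With counts halved and rounded up, the lower limits were 1.99 in BE2C and 4.14 in Kelly. Such intervals cover counting error only.

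**Figure D3:**
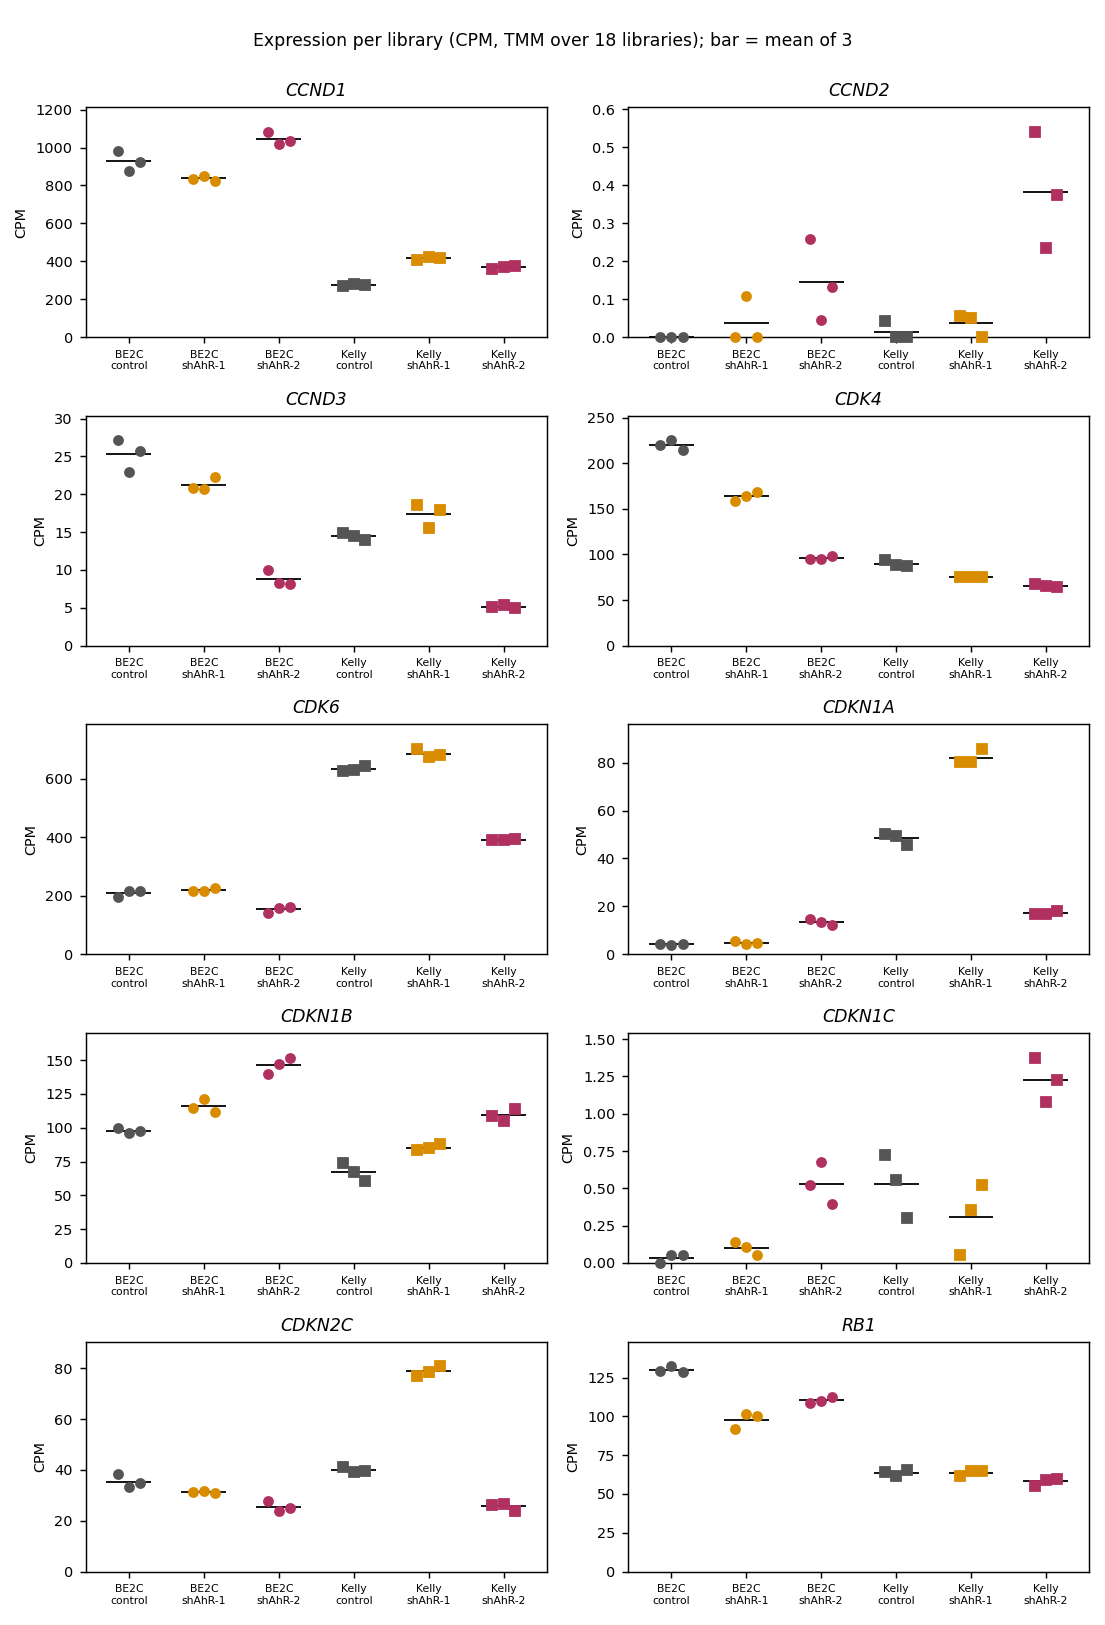
Level of each of the 10 members in CPM (y axis, linear, from 0) in the 18 libraries, by line and vector; points are libraries and bars the means of 3. The CDKN1A panel shows 12.4 to 14.7 CPM with shAhR-2 in BE2C, above its controls, and 16.8 to 18.1 CPM with shAhR-2 in Kelly, below its controls.

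CDK4 (chromosome 12, 57747727–57756013, minus strand), one of the kinases that D-type cyclins activate, fell in every comparison with control. In BE2C it went from 220, 225 and 214 CPM in the controls to 158, 164 and 168 with shAhR-1 and to 95.5, 95.5 and 97.9 with shAhR-2. In Kelly it went from 94.1, 88.5 and 86.8 CPM to 75.7, 75.5 and 74.8 and to 67.9, 64.9 and 64.5. The 3 groups of a line did not overlap, and shAhR-2 was lowest in both. The log2 changes were −0.41 ± 0.034 and −1.17 ± 0.034 in BE2C and −0.26 ± 0.038 and −0.52 ± 0.038 in Kelly (adjusted p = 2.35e-12, 8.55e-25, 3.76e-08 and 1.37e-17, edgeR). Of 14680 genes tested in both lines, 8.88% were lower in all 4. With shAhR-2 the fall was larger in BE2C, by −0.66 ± 0.051 (adjusted p = 9.79e-16, edgeR). TSPAN31, a tetraspanin gene, covers 43.2% of the exonic bases of CDK4 on the opposite strand, and without a known strand setting reads of the pair cannot be told apart. Its own level went the other way in BE2C, from 14.5 CPM to 19.3 and 21.9 (0.42 ± 0.084 and 0.61 ± 0.082), and was not called in Kelly (−0.01 ± 0.093 and 0.12 ± 0.091).

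CDK6 (chromosome 7, 92604921–92836594, minus strand), the other cyclin D kinase, fell with shAhR-2 in both lines. In BE2C it had 197, 217 and 215 CPM in the controls, 217, 217 and 228 with shAhR-1 and 141, 157 and 162 with shAhR-2. Kelly had 628, 630 and 643 CPM in the controls, 702, 673 and 682 in the libraries labelled shAhR-1 and 391, 392 and 394 with shAhR-2. The shAhR-2 libraries were the lowest of each line, at −0.43 ± 0.041 and −0.76 ± 0.026 (adjusted p = 3.62e-11 and 4.71e-31, edgeR), and the fall in Kelly was the larger (difference 0.32 ± 0.049). With shAhR-1 it rose slightly in Kelly (0.10 ± 0.026, adjusted p = 0.000533, edgeR), and in BE2C it was not called (0.09 ± 0.041, adjusted p = 0.0775, edgeR), though a fit of only those 2 groups called it (adjusted p = 0.0153). The ratio of CDK6 to CDK4 per kb in BE2C was 0.247 ± 0.0140 in the controls, 0.348 ± 0.00568 with shAhR-1, where CDK4 fell and CDK6 was not called, and 0.411 ± 0.0257 with shAhR-2, where both fell. In Kelly the ratio was 2.35 ± 0.0460 in the libraries labelled shAhR-1 and 1.54 ± 0.0466 with shAhR-2, on either side of the control's 1.83 ± 0.0948.

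**Figure D4:**
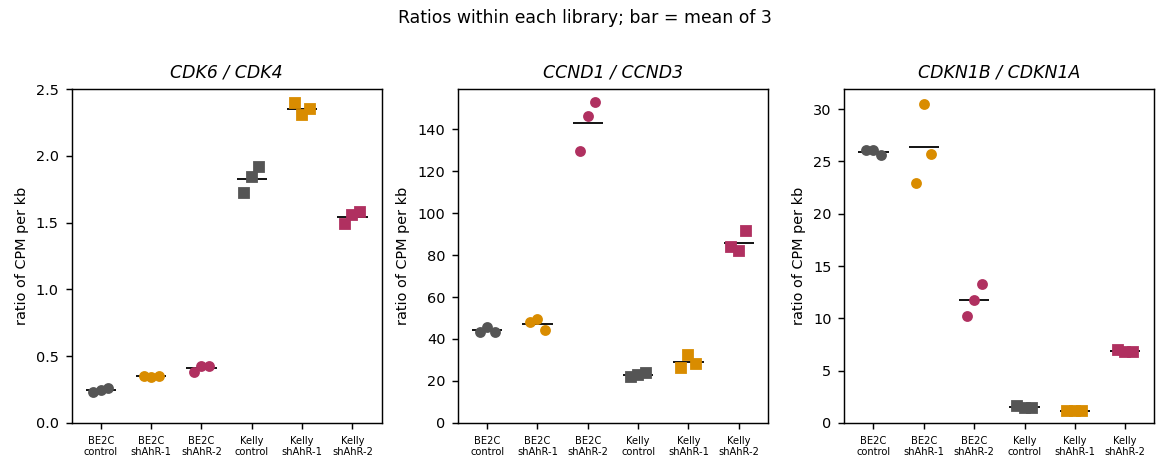
Ratios of CPM per kb within each library (y axis, linear, from 0) for CDK6 over CDK4, CCND1 over CCND3 and CDKN1B over CDKN1A, by line and vector; points are libraries and bars the means of 3. CCND1 over CCND3 is highest with shAhR-2 in both lines (means of 142.9 in BE2C and 85.9 in Kelly), and CDKN1B over CDKN1A moves down with shAhR-2 in BE2C and up in Kelly.

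CDKN1B (chromosome 12, 12715058–12722371, plus strand), which encodes p27, rose in all 4 comparisons. In BE2C it had 99.9, 96.1 and 97.4 CPM in the controls, 115, 121 and 112 with shAhR-1 and 139, 148 and 152 with shAhR-2. In Kelly it had 73.9, 67.0 and 61.0 CPM in the controls, 83.3, 85.0 and 87.7 in the libraries labelled shAhR-1 and 109, 105 and 114 with shAhR-2. The order control, shAhR-1, shAhR-2 held in both lines with no overlap. The log2 changes were 0.26 ± 0.039 and 0.60 ± 0.039 in BE2C and 0.33 ± 0.043 and 0.62 ± 0.042 in Kelly (adjusted p = 1.07e-06, 1.19e-15, 2.74e-09 and 7.38e-19, edgeR), and 6.34% of the genes tested in both lines were higher in all 4. The differences between the lines were not called, at −0.07 ± 0.063 for shAhR-1 and −0.04 ± 0.062 for shAhR-2 (adjusted p = 0.449 and 0.636, edgeR).

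CDKN1A (chromosome 6, 36676460–36687339, plus strand), which encodes p21 and is a classic target of p53, had the largest difference between the lines in its response to shAhR-2. In BE2C it had 4.15, 3.99 and 4.13 CPM in the controls, 5.45, 4.31 and 4.72 with shAhR-1 and 14.7, 13.6 and 12.4 with shAhR-2. CDKN1A in Kelly reached 50.2, 49.5 and 45.7 CPM in the controls, 80.1, 80.2 and 85.7 in the libraries labelled shAhR-1 and 17.0, 16.8 and 18.1 with shAhR-2. The shAhR-2 libraries lay above all other BE2C libraries in BE2C and below all other Kelly libraries in Kelly. The controls of the 2 lines were thus farther apart than their shAhR-2 libraries. The shAhR-2 change was 1.75 ± 0.12 in BE2C (adjusted p = 3.76e-15, edgeR) and −1.56 ± 0.052 in Kelly (adjusted p = 1.07e-31, edgeR), a difference of 3.29 ± 0.11 (adjusted p = 1.67e-29, edgeR). With shAhR-1 it rose in Kelly (0.75 ± 0.046, adjusted p = 3.28e-20, edgeR) and was not called in BE2C (0.25 ± 0.13, adjusted p = 0.0952, edgeR). The 2 hairpins of Kelly thus moved CDKN1A in opposite directions and differed by 2.31 ± 0.051 (adjusted p = 1.03e-39, edgeR).

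A list of 15 other p53 target genes was counted for comparison. With shAhR-2 9 rose and 4 fell in BE2C (median 0.43) and 6 rose and 7 fell in Kelly (median −0.09), where 38.0% and 37.2% of all genes rose and 37.2% and 38.2% fell. The Kelly counts were thus close to those of all genes. In the Kelly libraries labelled shAhR-1 10 rose and 3 fell (median 0.49), where 29.6% of all genes rose and 31.0% fell. With shAhR-1 in BE2C 6 rose and 4 fell (median 0.16), where 25.2% rose and 27.1% fell. Markers of other cell types moved with shAhR-2 as well. In BE2C the summed level of 8 fibroblast markers was 174 to 177 CPM in the controls and 301 to 314 with shAhR-2. There FAP was at 0 in the controls and COL1A2 with shAhR-2. In Kelly the sum was 110 to 116 in the controls and 111 to 113 with shAhR-2. FAP was at 0 in both of these Kelly groups, and COL1A2 only with shAhR-2. That of 6 Schwann cell or glial markers was 2.45 to 3.48 CPM and 13.2 to 14.1 in BE2C and 2.24 to 2.69 and 7.28 to 7.47 in Kelly. The sum of 3 endothelial markers was 1.05 to 1.69 CPM in the controls and 7.69 to 8.90 with shAhR-2 in BE2C, and 1.96 to 2.63 and 5.11 to 5.62 in Kelly. None of the 3 was at 0, but with shAhR-2 only 1 of 2 tested rose in BE2C and the 1 tested in Kelly. Of the fibroblast markers 4 rose and 1 fell of 6 tested in BE2C, and 1 rose and 3 fell of 5 in Kelly. Of the glial markers 4 of 5 tested rose in BE2C and 3 of 3 in Kelly, and none fell. Only 1 of 5 leukocyte markers was tested, and it rose in Kelly alone. What these shifts contribute to the member changes was not tested, and in bulk RNA fewer cells of a type and less RNA per cell cannot be told apart.

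CDKN1C (chromosome 11, 2883213–2885773, minus strand), which encodes p57 and is imprinted, was scarce, with 0, 2 and 2 counts in the BE2C controls, 6, 4 and 2 with shAhR-1 and 22, 30 and 18 with shAhR-2. Kelly held 34, 24 and 12 counts in the controls, 2, 14 and 22 in the libraries labelled shAhR-1 and 56, 46 and 56 with shAhR-2. The shAhR-2 libraries were the highest of each line, and the shAhR-1 libraries overlapped with the controls in both. In BE2C the gene passed the filter through the shAhR-2 libraries alone, so it had to be higher there to be tested at all (3.87 ± 0.76, adjusted p = 2.91e-05, edgeR). The ratio of pooled rates was 15.5 (exact 95% interval 5.81 to 58.6, or 3.99 to 133 with counts halved and rounded up). That interval covers counting error only, and the ratio uses the same libraries, so it is no separate support. In Kelly the rise was 1.13 ± 0.39 (adjusted p = 0.00840, edgeR), and without the third control library it was not called (0.86, adjusted p = 0.0566). With shAhR-1 in Kelly it was not called (−0.74 ± 0.46, adjusted p = 0.165, edgeR), but it was without the third shAhR-1 library (−1.32, adjusted p = 0.0341).

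CDKN2C (chromosome 1, 50960745–50974633, plus strand), which encodes p18, had 38.4, 33.1 and 34.7 CPM in the BE2C controls, 31.4, 31.6 and 31.0 with shAhR-1 and 27.9, 23.8 and 25.1 with shAhR-2. In Kelly it had 41.2, 39.1 and 39.6 CPM in the controls, 76.8, 78.6 and 80.8 in the libraries labelled shAhR-1 and 26.4, 26.5 and 24.0 with shAhR-2. The Kelly libraries labelled shAhR-1 stood above all others, and the shAhR-2 libraries were the lowest of each line. The shAhR-2 falls were −0.45 ± 0.066 in BE2C and −0.72 ± 0.050 in Kelly (adjusted p = 2.59e-07 and 2.35e-18, edgeR), and the Kelly shAhR-1 rise was 0.97 ± 0.046 (adjusted p = 2.00e-24, edgeR). The BE2C value with shAhR-1 was −0.16 ± 0.065 (adjusted p = 0.0351, edgeR), a call lost without the first control library (−0.10, adjusted p = 0.240), without any 1 of the shAhR-1 libraries (adjusted p = 0.0529 to 0.0736) and with DESeq2 (adjusted p = 0.0567).

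RB1 (chromosome 13, 48303726–48599436, plus strand), the substrate of the cyclin D kinases, changed by 0.40 or less on the log2 scale in each comparison with control. In BE2C it had 129, 132 and 129 CPM in the controls, 92.0, 101 and 101 with shAhR-1 and 109, 110 and 112 with shAhR-2, and both hairpin groups lay below the controls. RB1 in Kelly had 63.9, 61.5 and 65.4 CPM in the controls, 61.4, 64.7 and 64.6 in the libraries labelled shAhR-1 and 55.2, 59.2 and 59.7 with shAhR-2. It fell by 0.40 ± 0.038 and 0.22 ± 0.038 on the log2 scale in BE2C (adjusted p = 1.26e-10 and 6.28e-06, edgeR) and by 0.20 ± 0.042 with shAhR-2 in Kelly (adjusted p = 2.74e-05, edgeR). The Kelly libraries labelled shAhR-1 did not differ detectably from their controls (−0.01 ± 0.042, adjusted p = 0.872, edgeR).

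The hairpins also differed from each other. All 9 members tested, with CDKN1C in BE2C tested only through its shAhR-2 libraries, were called between shAhR-1 and shAhR-2 in each line, where 72.4% of genes were in BE2C (35.9% higher and 36.5% lower with shAhR-1, against 4 and 5 members) and 77.4% in Kelly (39.3% and 38.2%, against 7 and 2 members). Levels of CCND3, CDK4, CDK6 and CDKN2C were lower with shAhR-2 than with shAhR-1 in both lines, and those of CDKN1B and CDKN1C were higher. CCND3 was apart by 1.26 ± 0.087 in BE2C and 1.82 ± 0.092 in Kelly (shAhR-1 less shAhR-2), CDK6 by 0.51 ± 0.041 and 0.87 ± 0.026, CDK4 by 0.75 ± 0.035 and 0.26 ± 0.039, and CDKN2C by 0.28 ± 0.066 and 1.68 ± 0.048. CDKN1B was apart by −0.35 ± 0.038 and −0.29 ± 0.042. CCND1, CDKN1A and RB1 had opposite signs in the 2 lines, at −0.33 ± 0.032, −1.5004 ± 0.11 and −0.18 ± 0.039 in BE2C and 0.24 ± 0.027, 2.31 ± 0.051 and 0.19 ± 0.042 in Kelly. Called with both hairpins in 1 direction were CDKN1B (higher) and CCND3, CDK4, CDKN2C and RB1 (lower) in BE2C, where 32.0% of genes were (14.6% higher, 17.4% lower), and CCND1 and CDKN1B (higher) and CDK4 (lower) in Kelly, where 27.2% were (12.9% higher, 14.3% lower).

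The responses of the 2 lines were then compared in 1 fit, as the change in BE2C less that in Kelly. For shAhR-1 6 of 10 members were called, all with a negative difference, where 35.7% of genes were called (17.5% positive, 18.2% negative). The widest were CDKN2C (−1.12 ± 0.081, adjusted p = 4.98e-16, edgeR) and CCND1 (−0.72 ± 0.044, adjusted p = 1.77e-18, edgeR), both higher in the Kelly libraries labelled shAhR-1 and slightly lower in BE2C. For shAhR-2 6 of 10 were called, 4 positive and 2 negative, where 54.7% of genes were (28.8% positive, 25.8% negative). CDKN1A led, and CCND2, CCND3, CDKN1B and RB1 were not called. CCND2 was among the 10 tested in this fit only because its shAhR-2 libraries carried it past the filter on low counts.

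The rest of the pathway was taken from a list of 20 genes that act beside the members, among them cyclin E, CDK2, the pocket proteins p107 and p130, the activating kinase of CDKs and the ligases that degrade p27 and cyclin D. With shAhR-2, 13 of 20 fell and 3 rose in BE2C (median −0.47) and 13 of 19 tested fell and 4 rose in Kelly (median −0.60), where 37.2% of all genes fell and 38.0% rose in BE2C and 38.2% fell and 37.2% rose in Kelly. With shAhR-1, 11 fell and 4 rose in BE2C (median −0.15), and 4 fell and 8 rose in Kelly (median 0.07), where 27.1% of all genes fell and 25.2% rose in BE2C and 31.0% and 29.6% did in Kelly. SKP2, the ligase subunit that targets p27 for degradation, fell in all 4 comparisons, from 203.8 ± 2.79 CPM to 128 ± 0.901 and 41.7 ± 1.47 in BE2C and from 174 ± 2.06 to 119 ± 2.94 and 35.1 ± 1.59 in Kelly. Its cofactor CKS1B fell too, by log2 changes in BE2C of −0.71 ± 0.044 and −1.47 ± 0.045, with Kelly at −0.30 ± 0.043 and −2.39 ± 0.050, and it has pseudogene copies that could take some of its reads. CDK2, the partner of cyclin E, fell as well, by log2 changes in BE2C of −0.65 ± 0.060 and −1.17 ± 0.061, with Kelly at −0.79 ± 0.069 and −2.66 ± 0.079. RBL2, which encodes p130, the pocket protein of quiescent cells, was the 1 listed gene that rose in all 4, by 0.62 ± 0.048 and 0.59 ± 0.047 in BE2C and 0.52 ± 0.040 and 0.53 ± 0.039 in Kelly. Of the 19 listed genes tested in both lines, 1 rose and 4 fell in all 4, where 6.34% of all genes rose and 8.88% fell.

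**Figure D5:**
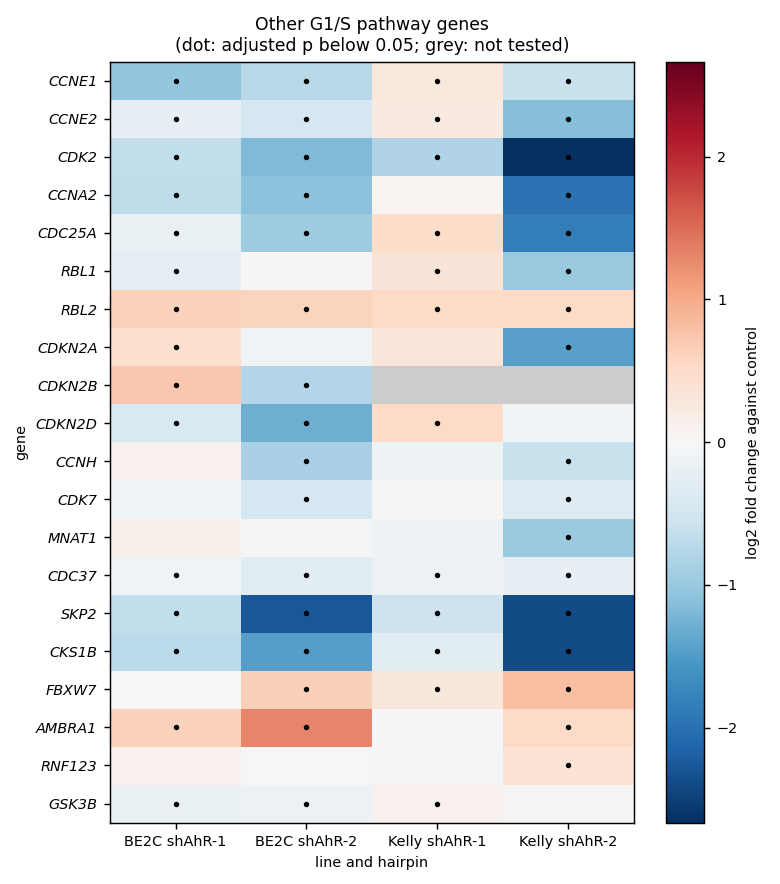
Log2 fold change against the control of the same line (colour, blue lower and red higher) for the 20 other pathway genes (rows) in the 4 comparisons (columns); a dot marks an adjusted p below 0.05 in edgeR and grey a gene not tested. SKP2, CKS1B and CDK2 are blue and RBL2 is red in every column.

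E2F target genes, which the pathway switches on at the start of DNA replication, were counted from a list of 18, of which RBL1, CCNE1 and CCNE2 are also on the list of 20. With shAhR-2, 17 fell and none rose in BE2C (median −1.32), and 18 of 18 fell in Kelly (median −2.46), against 37.2% and 38.2% of all genes that fell. With shAhR-1, 16 fell and 1 rose in BE2C (median −0.39), while 3 fell and 7 rose in Kelly (median 0.04), against 27.1% and 31.0% of all genes that fell and 25.2% and 29.6% that rose. In Kelly with shAhR-2 the E2F targets were thus lower together with CCND3, CDK4, CDK6, RB1 and the inhibitor genes CDKN1A and CDKN2C. The cyclin gene CCND1 and the inhibitor genes CDKN1B and CDKN1C were higher there.

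Finally, the genes whose pattern was most like that of a member were found by Pearson's r over the 18 libraries, on log2(CPM + 1) less the mean of the line's controls, among 8920 genes with a mean of at least 5 CPM in each line. CCND2 and CDKN1C lay below that level and were left out. Of the other members, the 4 with the largest mean absolute change against control are given. The nearest to CDKN1A were FN1 (r = 0.987), CAPN2 (0.982) and TCF7L2 (0.979). Those of CCND3 were HSPA2 (0.991), SAPCD2 (0.990) and SUV39H2 (0.989). For CDK4 they were MRPS15 (0.994), POLR2C (0.993) and HSPE1 (0.991), and for CDKN2C KIF21A (0.985), B4GALNT1 (0.979) and GOLIM4 (0.976). Among the members at that level the highest r was that of CCND3 with CDK6 (0.912) and the lowest that of CCND3 with CDKN1B (−0.802). These values of r are descriptions only, since all genes share the same 18 libraries and their 6 groups.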

How the data were processed

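The authors deposited raw counts for 39368 genes in 2 tables, 1 for each line. Per the submitters' processing notes, the tools were CASAVA 1.8.2 and STAR 2.7.9a and the genome build GRCh38.p7. Per the labels' protocols, libraries were made from total RNA with ribosomal RNA removed. The counting tool, annotation and strand setting were not given in the sources used here.

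Each line was fitted alone (3 groups of 3 libraries) with edgeR 4.0.16 in R 4.3.3, using filterByExpr, TMM, glmQLFit and glmQLFTest, with Benjamini-Hochberg adjustment over all genes tested and a threshold of 0.05. Differences between lines came from 1 fit of all 18 libraries. Fold changes are log2 values ± SE, the SE taken from the F statistic. Locations and exon lengths are from GENCODE release 29. The methods were tested on simulated data.

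The members and lists were chosen with earlier results of these data known. Named were all members, AHR, up to 3 listed pathway genes per direction called in all 4 comparisons with the largest mean change, and the nearest patterns. TSPAN31 and LTO1 were added for their overlap with members. Replicate numbers did not pair libraries: deviations of same-numbered libraries correlated at −0.0768 to 0.0701 in BE2C and −0.0497 to 0.0322 in Kelly. Alternatives were RLE size factors, other filters, a replicate block, leaving out each library, only the groups compared, DESeq2 1.42.0, halved counts and no mitochondrial genes.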

Additional observations from a re-analysis of the deposited data

Results flagged for a closer look

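Responses that differed between the lines were flagged from the fit of all 18 libraries in edgeR, as the log2 change in BE2C less that in Kelly. Under shAhR-2 the difference was 3.29 for CDKN1A, 2.71 for CDKN1C, 0.32 for CDK6 and 0.25 for CDKN2C, and it was −0.66 for CDK4 and −0.17 for CCND1 (6 of 10 members, where 54.7% of genes were called). Under shAhR-1 it was −1.12 for CDKN2C, −0.72 for CCND1, −0.49 for CDKN1A, −0.48 for CCND3, −0.38 for RB1 and −0.14 for CDK4 (again 6 of 10, where 35.7% of genes were called). All 6 shAhR-1 differences were negative, with 18.2% of genes called in that direction.

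The CDKN1C value under shAhR-2 rests on 4 counts in the BE2C controls and was not called without the first of them (2.16, adjusted p = 0.0526). The CDKN2C value under shAhR-2 was not called without the first BE2C shAhR-2 library (0.18, adjusted p = 0.0760) or replicate 3 of Kelly shAhR-2 (0.19, adjusted p = 0.0587). The CDK4 value under shAhR-1 was not called without the second BE2C control, the first BE2C shAhR-1 library or replicate 2 or 3 of the Kelly control, each left out alone (adjusted p = 0.0560 to 0.0943). Under shAhR-1 the CDKN1C difference was not called, but it was without the third Kelly shAhR-1 library (2.84, adjusted p = 0.0493).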

How the results depend on the processing

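Across the alternatives, each count of members or of all genes called stayed within 1.5 times its value, with 1 exception. Without the first BE2C control library, 3 members in place of 5 were called with both hairpins in 1 direction in BE2C (3 to 5 over the libraries left out), since CCND3 and CDKN2C were then not called with shAhR-1. Single-library removals gave 4 to 7 members for shAhR-1 in BE2C. Of the other values for single genes, 643 kept direction and call under other settings, 3 gained the call, 2 lost it and 3 changed sign, and over single libraries left out 996 kept both, 3 gained it, 13 lost it and 14 changed sign. No value that changed sign had been called. Without a filter on low counts the line difference of CCND3 under shAhR-2 was −0.031 and that of CDKN2C was not called (0.17, adjusted p = 0.101). At a mean CPM of at least 1 the CCND3 difference was −0.0017 and RB1 in Kelly with shAhR-1 was 0.0023. CDK6 in BE2C with shAhR-1 was called at that mean CPM (adjusted p = 0.0337) and with the replicate block (adjusted p = 0.0324).

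Over the libraries left out, the line difference under shAhR-1 ran from −0.054 to 0.017 for CDK6 and from −1.02 to 3.17 for CCND2, and that under shAhR-2 from −0.063 to 0.098 for CCND3, −0.12 to 0.018 for CDKN1B and −1.40 to 1.74 for CCND2. CCND2 between controls ran from −3.14 to 0, and RB1 in Kelly with shAhR-1 from −0.032 to 0.015. The cause was not tested. With the replicate block, BE2C had 7 members called for shAhR-1, 9 for shAhR-2 and 9 between hairpins, and Kelly 7, 9 and 9, and the CDK6 call was the only one of a member to change. Without the filter CCND2 was called with shAhR-2 in both lines (adjusted p = 0.0140 and 0.000184, edgeR; 0.0182 and 0.000983 with DESeq2). DESeq2, which was run without the filter, moved the median of all genes by 0.12 in BE2C with shAhR-2. Without the filter edgeR moved it by 0.098. Depth limits CCND2, CDKN1C and AHR.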
